A study of Mus musculus with 8 samples.

Results

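Macrophages of mice stimulated in the peritoneal cavity for 4 h with lipopolysaccharide (LPS) were compared directly with those of mice stimulated for 4 h with interferon beta (IFNb). The comparison used the 4 libraries labelled LPS or IFNb, 2 of each, out of the 8 in the series, chosen by label alone. Each group consisted of 7-week-old male C57BL6 mice. No allele, transgene or other agent separates the groups in the labels, which state no dose. The labels call the cells peripheral macrophages, and RNA sequencing was run on total RNA with Illumina TruSeq libraries. The other 4 libraries, from saline and from IFNb followed by LPS, took no part in the comparison, and saline levels are printed only to place a gene. Nothing in the labels tells whether a stimulus's 2 libraries represent different mice, and p-values hence reflect library-to-library spread alone, which may be technical. Levels are in TPM, a unit in which transcript abundances are divided by transcript length and scaled to the same total in every library. The deposited values carry no read counts, so the depth of each library is unknown and no counting interval can be given.

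LPS is the outer membrane glycolipid of Gram-negative bacteria. Macrophages sense it through CD14, MD-2 (Ly96) and Toll-like receptor 4, which signals through MyD88 to NF-kB, AP-1 and p38, and through TRIF to IRF3 and the Ifnb1 gene itself. IFNb is the type I interferon that this second branch releases. It binds the receptor formed by IFNAR1 and IFNAR2, activates JAK1 and TYK2, and sends STAT2 and IRF9 to interferon-stimulated response elements. A direct comparison of the stimuli therefore sets the whole of the LPS response, which can include interferon made by the cells, against interferon signalling alone.

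Libraries of the same stimulus correlated at 0.984 (LPS) and 0.982 (IFNb) across genes on the log2(TPM + 1) scale, and libraries of different stimuli at 0.881 to 0.89. Mitochondrially encoded transcripts took 3.39% and 3.11% of TPM with LPS and 2.62% and 2.84% with IFNb. The macrophage genes Csf1r and Adgre1 (F4/80) stood at 229 to 235 and 267 to 307 TPM with LPS and at 185 to 202 and 189 to 212 TPM with IFNb. Gata6, the factor that defines large peritoneal macrophages, stood at 0.862 and 2.11 TPM with LPS and 0.911 and 0.872 TPM with IFNb, and Timd4, a phagocytic receptor of resident macrophages, at 1.29 to 1.62 TPM with LPS and 1.54 to 3.37 TPM with IFNb. Cd9, a tetraspanin of large peritoneal macrophages, had 1098 and 1107 TPM with LPS and 737 and 755 TPM with IFNb, so genes of these cells ranged from near the 1 TPM limit of testing to high levels. In bulk RNA, fewer cells of a type and less RNA per cell cannot be told apart.

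Of 12093 genes that reached 1 TPM in at least 2 of the 4 libraries, 5175 (42.8%) passed the test at an adjusted p under 0.05 (limma on log2(TPM + 1), Benjamini-Hochberg over all 12093 genes, two-sided). With LPS, 2225 genes (18.4%) were higher and 2950 (24.4%) lower than with IFNb, and the median difference over all genes tested was -0.06. Counts of list members given below are to be read against these shares. Differences are LPS minus IFNb on the log2(TPM + 1) scale, with the standard error after ±, and this scale understates the change of genes near 0 TPM. Among called genes, 141 were higher by at least 3 and 116 lower by at least 3, while 32 were higher and 4 lower by at least 5. Genes higher with LPS supplied 34.7% and 34.8% of all TPM in the LPS libraries, against 16.6% and 16.3% in the IFNb libraries. Genes lower with LPS supplied 17.2% and 16.2% of TPM in the LPS libraries, against 35.7% and 36.9% in the IFNb libraries. The 95% interval of the difference lay within 1 log2 unit of 0 for 6837 genes (56.5%). Leaving out any single library left 1397 to 1495 genes higher and 1819 to 1951 lower.

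**Figure D1:**
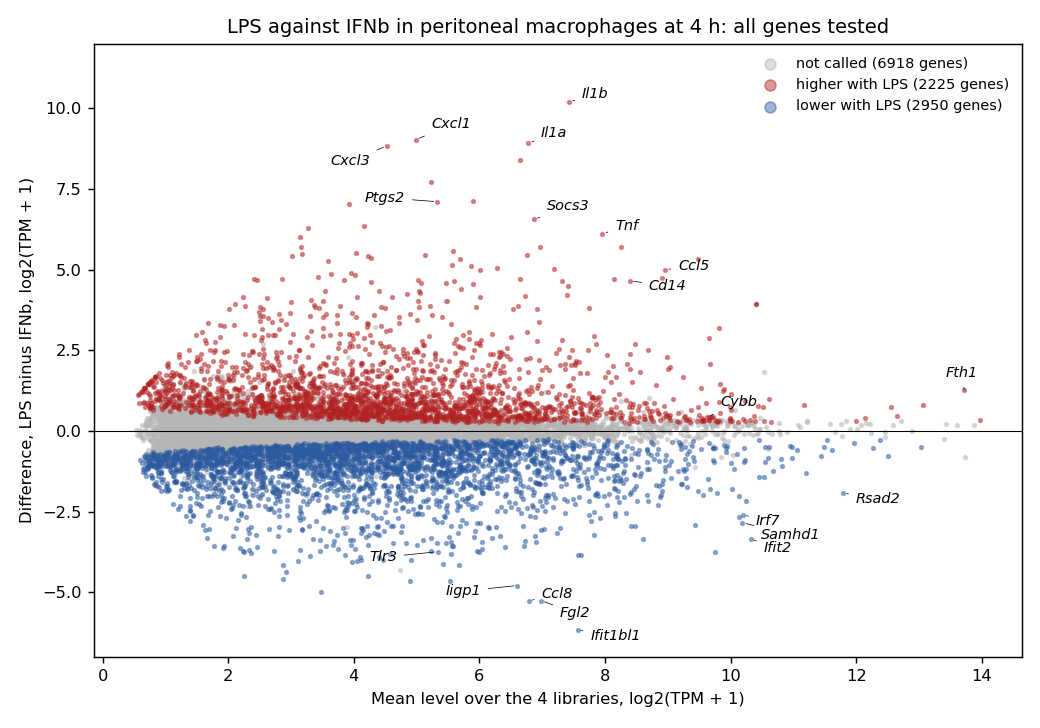
Each point is 1 of the 12093 genes tested, with its mean level over the 4 libraries on the horizontal axis (log2(TPM + 1)) and its difference, LPS minus IFNb, on the vertical axis (log2(TPM + 1)). Red points passed the test as higher with LPS (2225 genes), blue points as lower (2950) and grey points did not pass (6918). Il1b reaches 10.21 above the line, while Ifit1bl1 lies furthest below it at -6.17.

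Among the genes with the largest differences, 3 in each direction are shown with the bases before their start to show the sequence upstream of the widest contrasts. The sequences are RefSeq promoters (GRCm38.p6), printed 5′ to 3′ on the gene's own strand and cut at the first base that GENCODE places inside the gene. Capitals mark every match to the 5 motifs searched on both strands. Il1b (chr2:129371140-129371389, minus strand), Cxcl1 (chr5:90890995-90891240, plus strand) and Il1a (chr2:129309973-129310222, minus strand) were higher with LPS. Ifit1bl1 (chr19:34601969-34602218, minus strand), Ccl8 (chr11:82114935-82115184, plus strand) and Fgl2 (chr5:21372423-21372641, plus strand) were lower with LPS.
Il1b: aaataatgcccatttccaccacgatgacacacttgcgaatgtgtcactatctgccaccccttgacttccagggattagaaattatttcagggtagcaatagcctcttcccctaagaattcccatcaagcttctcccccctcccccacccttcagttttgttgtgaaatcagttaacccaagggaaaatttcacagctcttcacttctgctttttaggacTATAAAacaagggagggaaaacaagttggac
Cxcl1: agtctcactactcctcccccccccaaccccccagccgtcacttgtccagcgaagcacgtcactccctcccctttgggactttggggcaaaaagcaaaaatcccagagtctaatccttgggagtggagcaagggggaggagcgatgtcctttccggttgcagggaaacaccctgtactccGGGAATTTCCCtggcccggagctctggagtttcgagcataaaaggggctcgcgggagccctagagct
Il1a: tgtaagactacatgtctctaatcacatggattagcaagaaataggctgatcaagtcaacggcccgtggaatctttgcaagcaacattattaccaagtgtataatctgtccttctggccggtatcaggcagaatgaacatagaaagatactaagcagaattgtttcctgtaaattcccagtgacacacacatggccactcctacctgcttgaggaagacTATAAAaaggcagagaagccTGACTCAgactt
Ifit1bl1: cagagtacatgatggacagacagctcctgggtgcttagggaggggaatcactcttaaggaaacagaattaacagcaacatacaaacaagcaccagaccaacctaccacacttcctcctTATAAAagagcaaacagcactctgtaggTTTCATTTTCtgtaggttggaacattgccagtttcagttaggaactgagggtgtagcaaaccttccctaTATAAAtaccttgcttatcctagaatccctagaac
Ccl8: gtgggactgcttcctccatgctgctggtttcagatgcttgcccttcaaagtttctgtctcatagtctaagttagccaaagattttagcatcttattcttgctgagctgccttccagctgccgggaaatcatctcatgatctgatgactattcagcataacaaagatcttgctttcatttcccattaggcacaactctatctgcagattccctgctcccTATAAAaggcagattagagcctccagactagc
Fgl2: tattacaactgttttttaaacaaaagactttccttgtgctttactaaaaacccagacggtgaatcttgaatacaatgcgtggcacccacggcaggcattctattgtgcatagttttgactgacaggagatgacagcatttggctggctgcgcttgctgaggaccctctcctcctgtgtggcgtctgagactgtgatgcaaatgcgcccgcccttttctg
Positions count back from RefSeq's start, with -1 as the base before it. The Cxcl1 window held the NF-kB consensus on both strands in the single run GGGAATTTCCC, at -71 to -61, where the matches overlap. The Ifit1bl1 window held the core of an interferon-stimulated response element on the minus strand at -104 to -95, printed as TTTCATTTTC. TATA boxes stood at -31 to -26 in Il1b, -32 to -27 in Il1a and Ccl8, and -35 to -30 in Ifit1bl1, which had a further match at -132 to -127. Il1a also held an AP-1 match at -12 to -6, and the Fgl2 window held none of the letters searched.

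The same motifs were counted in the RefSeq windows of 250 bases before to 50 after the start. Of the 100 genes with the largest differences higher with LPS, 79 had a window, as did 76 of the 100 largest lower with LPS and 8739 of the genes tested. The NF-kB consensus was present in 20.3% of the windows of genes higher with LPS, 7.89% of those lower with LPS and 5.03% of all. The core of the interferon-stimulated response element, searched as GAAA and GAAA with any 2 bases between them, was present in 3.80% of windows higher with LPS, 21.1% of those lower with LPS and 3.58% of all. These motifs thus differed in opposite ways between the sets. Every motif searched was above the share of all windows in both sets, the interferon element only just so in genes higher with LPS. AP-1 (TGANTCA) was found in 15.2% of windows higher with LPS, 13.2% of those lower and 5.09% of all. The gamma-activated site (TTCNNNGAA) was found in 11.4%, 15.8% and 7.12% in the same order, and TATAAA in 20.3%, 13.2% and 7.06%. Because the sets were chosen by their differences, the shares describe them and carry no test, and a match is not shown to be a bound site.

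Cytokine messengers had some of the largest differences. Of 24 proinflammatory cytokines tested, 18 were higher and 3 lower with LPS, with a median difference of 3.84, against 18.4% higher, 24.4% lower and -0.06 over all genes. Summed over the list, they reached 12997 and 11334 TPM with LPS, against 556 and 553 TPM with IFNb. Il1b, the inflammasome-processed pyrogen, had 6242 and 5628 TPM in the LPS libraries and 2.76 and 5.70 TPM in the IFNb libraries, a difference of 10.21 ± 0.29 (adjusted p = 1.90e-04). Its relative Il1a, released as an alarmin, had 2719 and 2145 TPM with LPS and 4.57 and 3.48 TPM with IFNb (8.92 ± 0.17, adjusted p = 1.63e-04). With saline, Il1b had 5.28 and 7.06 TPM and Il1a 13.4 and 13 TPM, and no IFNb library exceeded the higher saline level of either gene. Tnf, the ligand that spreads inflammation through TNF receptors, had 2238 and 1925 TPM with LPS, against 27.2 and 30.5 TPM with IFNb (6.12 ± 0.11). For Il6, which drives the acute-phase response, the values were 131 and 129 TPM with LPS and 8.95 and 5.62 TPM with IFNb (4.02 ± 0.21). No library of either stimulus crossed into the range of the other for these 4 genes. The same held for 8904 of the 12093 genes tested (73.6%).

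Subunits of the interleukin-12 family were higher with LPS. Il12b, the p40 subunit shared by IL-12 and IL-23, had 130 and 54.2 TPM with LPS and 0.0375 and 0.133 TPM with IFNb (6.30 ± 0.43, adjusted p = 8.88e-04). Its partner Il23a (p19) had 86.4 and 57.4 TPM with LPS and 0.00 and 0.210 TPM with IFNb (6.02 ± 0.24), and Il12a (p35) had 63.5 and 42.8 TPM with LPS and 0.108 and 0.348 TPM with IFNb (5.44 ± 0.24). With IFNb these subunits were therefore at or near 0, and the size of the difference is set partly by the pseudocount of 1. Colony-stimulating Csf2 (GM-CSF) had 26.2 and 26.4 TPM with LPS and 0.00 and 0.0870 TPM with IFNb (4.71 ± 0.13). Tnfsf9 (4-1BB ligand), a costimulator of T cells, had 673 and 732 TPM with LPS and 5.23 and 3.11 TPM with IFNb (7.12 ± 0.22).

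A few cytokines ran the other way. Tnfsf10 (TRAIL), a death ligand, had 5.77 and 4.21 TPM with LPS and 144 and 155 TPM with IFNb (-4.66 ± 0.15, adjusted p = 2.28e-04). Il18, stored as a precursor for caspase-1, had 45.6 and 31.2 TPM with LPS and 111 and 110 TPM with IFNb (-1.52 ± 0.19). Il15, which sustains NK cells, had 69.7 and 74.2 TPM with LPS and 90.6 and 86.7 TPM with IFNb (-0.30 ± 0.08, adjusted p = 0.0431). That call was lost when any library was left out and under median-ratio and upper-quartile scaling, where adjusted p-values passed 0.05.

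The restraining cytokines had a smaller median difference. Of 8 anti-inflammatory members tested, 4 were higher and 1 lower, with a median of 0.42, and the 4 fell to 2 whichever library was left out, while the 1 became 2 without LPS 2. Il1rn, the natural blocker of the IL-1 receptor, had 1580 and 1737 TPM with LPS and 966 and 767 TPM with IFNb (0.94 ± 0.14, adjusted p = 0.0071), a call lost without LPS 2. It was plentiful with IFNb while Il1a and Il1b were not. Il10, the main deactivator of macrophages, had 28.3 and 23.2 TPM with LPS and 15.7 and 16.9 TPM with IFNb (0.63 ± 0.13, adjusted p = 0.0208), and passed only without LPS 2 among the leave-one-out fits. Tsc22d3 (GILZ), a glucocorticoid-induced inhibitor of NF-kB and AP-1, was the member lower with LPS, at 7.80 and 7.17 TPM against 55.4 and 52.6 TPM with IFNb and 140 and 136 TPM with saline (-2.70 ± 0.10).

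The Ifnb1 transcript itself was measured. It had 10.9 and 10 TPM in the LPS libraries, against 0.229 and 0.101 TPM in the IFNb libraries, and was listed at 0 in both saline libraries. The difference was 3.30 ± 0.16 (adjusted p = 3.99e-04). The interferon given to the IFNb mice is protein and does not enter this count.

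**Figure D2:**
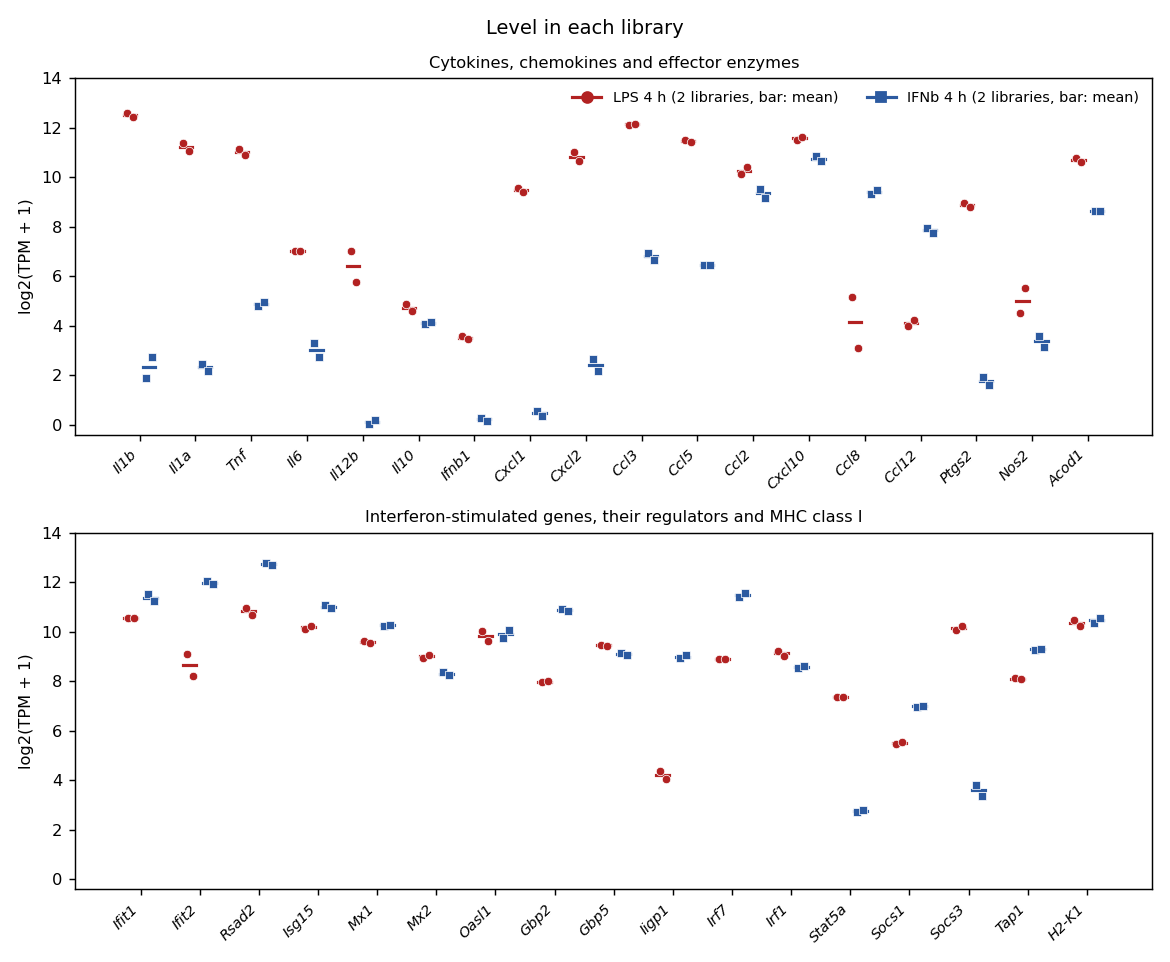
Level of selected genes in each library (log2(TPM + 1)), with LPS libraries as red circles, IFNb libraries as blue squares and a bar at each group's mean of 2. In the upper panel Il1b, Il1a and Cxcl1 are separated most and Ccl8 and Ccl12 are the genes higher with IFNb. In the lower panel Mx2, Gbp5, Irf1, Stat5a and Socs3 sit higher with LPS, Oasl1 and H2-K1 overlap, and the other genes sit lower with LPS.

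Chemokines are taken by the cells they attract. Of 5 neutrophil chemokines tested, 4 were higher with LPS and none lower (median 8.41). Where a list is given as having none in a direction, limma also found none at an unadjusted p under 0.05, except 1 TRIM gene higher and 1 TCA cycle gene lower. Cxcl1 had 761 and 686 TPM with LPS and 0.491 and 0.290 TPM with IFNb (9.03 ± 0.12), and Cxcl2 had 2094 and 1612 TPM with LPS and 5.39 and 3.56 TPM with IFNb (8.41 ± 0.22). Cxcl3, of the same cluster on chromosome 5, had 493 and 488 TPM with LPS and 0.0785 and 0.0725 TPM with IFNb (8.84 ± 0.09, adjusted p = 1.11e-04). The platelet chemokine Pf4 was the member that did not pass, at 199 and 254 TPM with LPS and 230 and 184 TPM with IFNb. With IFNb, Cxcl1, Cxcl2 and Cxcl3 therefore stayed within a few TPM of 0, as with saline, where they ranged over 0.953 to 5.24 TPM.

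Of 15 CC and other chemokines tested, 9 were higher and 2 lower with LPS (median 1.88). The macrophage inflammatory protein genes Ccl3 and Ccl4 were higher, as was Ccl5. Ccl3 had 4453 and 4616 TPM with LPS and 123 and 101 TPM with IFNb (5.34 ± 0.12), Ccl4 had 5048 and 5603 TPM with LPS and 392 and 300 TPM with IFNb (3.95 ± 0.15), and Ccl5 had 2887 and 2741 TPM with LPS and 87.3 and 86.8 TPM with IFNb (5 ± 0.07). The monocyte chemokines did not move together. Ccl2, the principal CCR2 ligand, had 1115 and 1356 TPM with LPS and 746 and 570 TPM with IFNb (0.91 ± 0.17, adjusted p = 0.0154), a call lost without LPS 2 or IFNb 2. Its neighbour Ccl7 had 449 and 493 TPM with LPS and 511 and 352 TPM with IFNb and did not pass (0.15 ± 0.20, adjusted p = 0.585). Ccl12, a mouse CCR2 ligand, had 15 and 18 TPM with LPS and 250 and 216 TPM with IFNb (-3.74 ± 0.13), and Ccl8 had 35.4 and 7.63 TPM with LPS and 640 and 729 TPM with IFNb (-5.27 ± 0.70, adjusted p = 0.00534). The 2 LPS libraries differ widely for Ccl8, though both lie far below the IFNb libraries.

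Cxcl10, which draws CXCR3-bearing T and NK cells and is a classic interferon target, was plentiful with both stimuli. It had 2901 and 3206 TPM with LPS and 1848 and 1610 TPM with IFNb, against 1.95 and 2.31 TPM with saline (0.82 ± 0.11, adjusted p = 0.00508). Cxcl9 had 8.56 and 3.27 TPM with LPS and 4.72 and 11.9 TPM with IFNb, and the groups overlapped (-0.43 ± 0.56, adjusted p = 0.582). Among chemokine and chemoattractant receptors, 6 of 13 were higher and 4 lower with LPS, against 18.4% and 24.4% over all genes. The formyl peptide receptor Fpr1 had 31.9 and 41.4 TPM with LPS and 0.625 and 0.231 TPM with IFNb (4.72 ± 0.21), and the C5a receptor C5ar1 had 340 and 342 TPM with LPS and 25.3 and 22.8 TPM with IFNb (3.78 ± 0.09). Cxcr4, the CXCL12 receptor, was lower with LPS, at 5.11 and 4.60 TPM with LPS, against 35 and 36.9 TPM with IFNb and 192 and 160 TPM with saline (-2.66 ± 0.11).

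The NF-kB genes moved nearly as a block. Of 22 subunits, inhibitors and regulators tested, 20 were higher and 1 lower with LPS (median 2.52), and their summed level was 5002 and 5245 TPM with LPS, against 562 and 579 TPM with IFNb. Nfkbia (IkB-alpha), which returns NF-kB to the cytoplasm, had 1364 and 1530 TPM with LPS and 49.6 and 60.3 TPM with IFNb (4.70 ± 0.13). Nfkbiz (IkB-zeta), a nuclear cofactor for Il6 and other secondary genes, had 361 and 324 TPM with LPS and 9.51 and 8.30 TPM with IFNb (5.12 ± 0.11). Tnfaip3 (A20), the ubiquitin editor that ends the signal, had 806 and 819 TPM with LPS and 36.8 and 33.1 TPM with IFNb (4.50 ± 0.09). Nfkb2, of the non-canonical branch, had 281 and 297 TPM with LPS and 11.2 and 11.1 TPM with IFNb (4.57 ± 0.08). Within the list, inhibitors and subunits were both higher. The deubiquitinase Cyld was the member lower with LPS, at 9.73 and 9.04 TPM against 13.9 and 14.1 TPM with IFNb (-0.53 ± 0.11, adjusted p = 0.0174), a call lost when any library was left out.

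The sensing apparatus for LPS was less uniform, with 10 of 23 members higher and 3 lower (median 0.35). Cd14, the co-receptor that hands LPS to TLR4, had 1564 and 1829 TPM with LPS and 83.7 and 52.2 TPM with IFNb (4.66 ± 0.24). Tlr4 itself had 12.2 and 10.6 TPM with LPS and 61.9 and 73.4 TPM with IFNb, with saline between them at 44.1 and 39.9 TPM (-2.47 ± 0.13, adjusted p = 4.93e-04). The adaptor Myd88 had 125 and 129 TPM with LPS and 151 and 145 TPM with IFNb and did not pass (-0.22 ± 0.07, adjusted p = 0.0716). It stood at 35.3 and 33.7 TPM with saline. Irak3 (IRAK-M), the kinase-dead brake on the pathway, had 50.2 and 49.5 TPM with LPS and 5.97 and 6.94 TPM with IFNb (2.77 ± 0.11), and Ikbke, a kinase of the IRF3 branch, had 338 and 337 TPM with LPS and 86.9 and 71.8 TPM with IFNb (2.08 ± 0.11).

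AP-1 and immediate-early genes had 15 of 22 members higher and 4 lower with LPS (median 1.54), and the paralogs Junb and Jun went in opposite directions. Junb had 397 and 446 TPM with LPS and 61.5 and 55.6 TPM with IFNb (2.83 ± 0.10). Jun had 16.2 and 23.9 TPM with LPS and 160 and 136 TPM with IFNb, and saline stood near IFNb at 125 and 170 TPM (-2.85 ± 0.21, adjusted p = 0.00106). Fos also was lower with LPS, at 9.33 and 8.86 TPM against 27.1 and 27.3 TPM with IFNb (-1.48 ± 0.10). For the small Maf factors, Maff had 59.1 and 44.5 TPM with LPS and 1.76 and 1.45 TPM with IFNb (4.33 ± 0.18), while Mafk had 34.4 and 36.4 TPM with LPS and 73.4 and 71.2 TPM with IFNb (-1.01 ± 0.08). Atf3, an inducible repressor, had 590 and 562 TPM with LPS and 526 and 556 TPM with IFNb and did not pass (0.09 ± 0.08, adjusted p = 0.387).

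Cytokine output is also controlled by kinases and by RNA decay. Of 13 dual-specificity phosphatases and p38 genes, 9 were higher and none lower (median 1.21). Mapkapk2 (MK2), which stabilises cytokine RNA, had 628 and 627 TPM with LPS and 83.6 and 77.9 TPM with IFNb (2.94 ± 0.08), and the p38-alpha gene Mapk14 had 138 and 126 TPM with LPS and 18.1 and 16.6 TPM with IFNb (2.86 ± 0.10). Among 11 decay factors, 5 were higher and 3 lower, with a median of 0.05, against 18.4% higher and 24.4% lower over all genes. Zc3h12a (Regnase-1), which cleaves Il6 RNA, had 209 and 225 TPM with LPS and 8.35 and 7.59 TPM with IFNb (4.60 ± 0.09). Tristetraprolin (Zfp36), which removes Tnf RNA, had 292 and 344 TPM with LPS and 83.8 and 82.9 TPM with IFNb (1.91 ± 0.10), whereas its paralog Zfp36l2 had 21.4 and 21.3 TPM with LPS and 114 and 111 TPM with IFNb (-2.34 ± 0.08). Arid5a, which protects Il6 RNA from Regnase-1, was lower with LPS at 52.2 and 66.9 TPM, against 141 and 133 TPM with IFNb (-1.20 ± 0.14).

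Feedback on cytokine receptors split between paralogs. Of 15 genes tested, 5 were higher and 7 lower with LPS. These counts fell to 3 and 4 without LPS 2 or IFNb 2. Socs3, which blocks gp130 receptors, had 1082 and 1191 TPM with LPS and 13.1 and 9.31 TPM with IFNb (6.56 ± 0.17). Cish, a target and inhibitor of STAT5, had 128 and 118 TPM with LPS and 2.80 and 1.42 TPM with IFNb (5.35 ± 0.24). Socs1, which blocks the interferon receptors, had 43.8 and 45.5 TPM with LPS and 125 and 128 TPM with IFNb (-1.48 ± 0.08), and Usp18, the ISG15 protease that also silences IFNAR2, had 193 and 213 TPM with LPS and 813 and 808 TPM with IFNb (-1.99 ± 0.08). Each of these 4 genes was separated between the stimuli, as were 73.6% of all genes tested. With saline these 4 all stood at or below 10.3 TPM. The phosphatase gene Ptpn6 (SHP-1) had 530 and 573 TPM with LPS and 1577 and 2371 TPM with IFNb (-1.81 ± 0.21).

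Interferon receptors and their kinases and transcription factors had 6 of 15 members higher and 5 lower with LPS, and the 5 fell to 3 without LPS 1, IFNb 1 or IFNb 2. The shares over all genes were 18.4% higher and 24.4% lower. Ifnar1 had 208 and 195 TPM with LPS and 74.2 and 72.7 TPM with IFNb (1.44 ± 0.08), and Ifnar2 had 293 and 297 TPM with LPS and 174 and 164 TPM with IFNb (0.80 ± 0.07). Saline levels were 76.5 and 86.4 TPM for Ifnar1 and 161 and 136 TPM for Ifnar2, close to those with IFNb. The interferon-gamma receptor chain Ifngr1 had 111 and 95.5 TPM with LPS, against 29.4 and 22 TPM with IFNb and 131 and 124 TPM with saline (1.98 ± 0.17). Stat5a had 164 and 164 TPM with LPS and 5.56 and 6.06 TPM with IFNb (4.60 ± 0.09). Of the interferon regulatory factors, Irf7, which amplifies interferon production, had 473 and 477 TPM with LPS and 2707 and 3067 TPM with IFNb (-2.60 ± 0.09). Irf1 had 596 and 523 TPM with LPS and 368 and 390 TPM with IFNb (0.56 ± 0.10, adjusted p = 0.0116), a call lost without IFNb 1 or IFNb 2. Irf9, which binds DNA together with STAT2, did not pass, with 72.2 and 74.5 TPM with LPS and 83.6 and 75.5 TPM with IFNb.

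**Figure D3:**
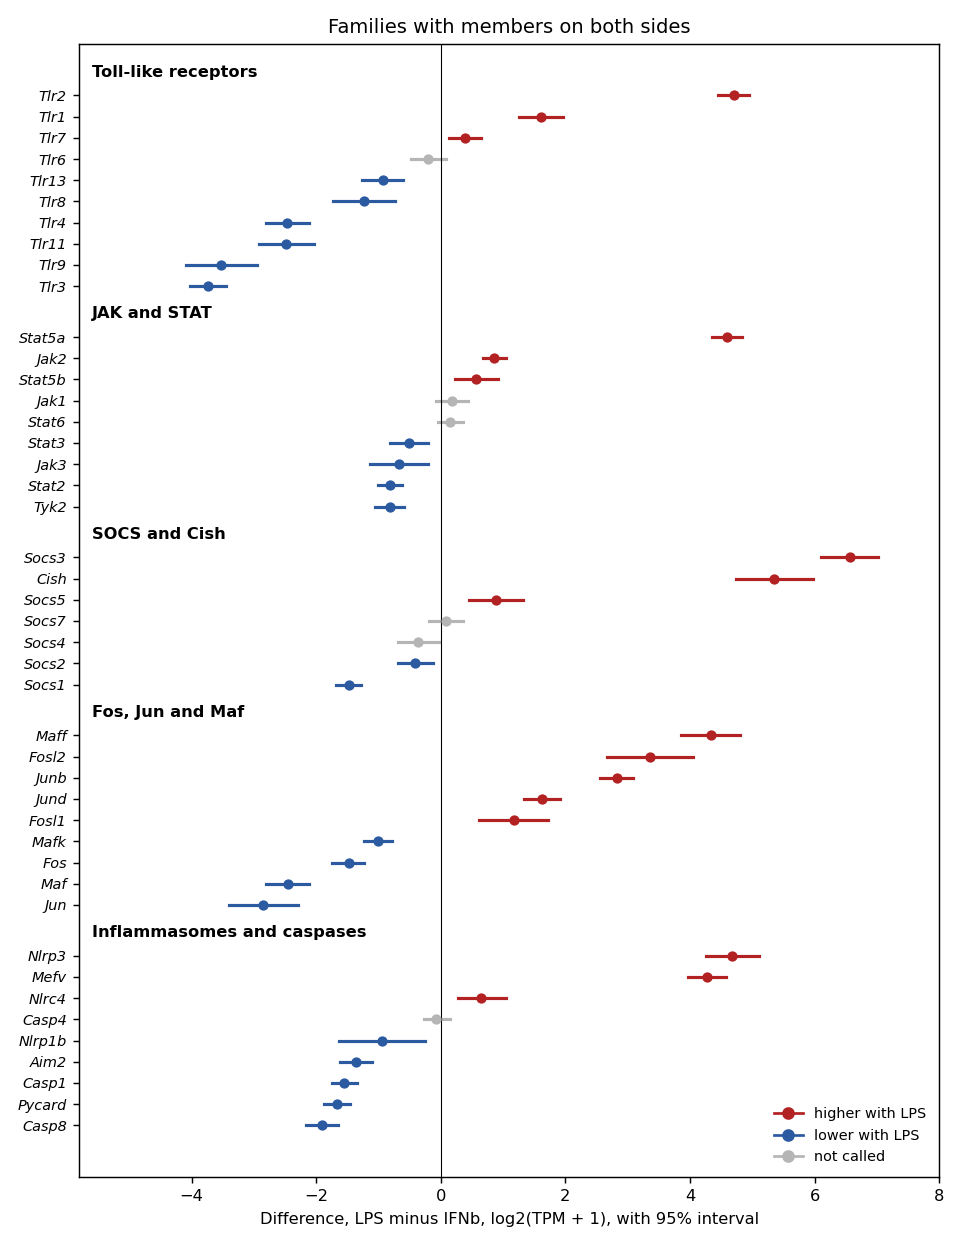
Difference, LPS minus IFNb (log2(TPM + 1)), with its 95% interval for selected members of 5 families that have members on both sides of 0. Red members were higher with LPS, blue lower and grey did not pass. Tlr2, Stat5a, Socs3, Maff and Nlrp3 lead on the right, and Tlr3, Tyk2, Socs1, Jun and Casp8 lie furthest left in their families.

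Interferon-stimulated antiviral genes were mostly lower with LPS, yet their sum was far above saline with both stimuli. Of 51 tested, 41 were lower and 4 higher with LPS (median -1.43), and the 4 fell to 1 to 3 when a library was left out. The summed level was 14495 and 13434 TPM with LPS, against 45759 and 45013 TPM with IFNb and 2074 and 1996 TPM with saline. Not every member followed the sum. Ifi27 had 228 and 213 TPM with LPS and 176 and 172 TPM with IFNb, below its 266 and 237 TPM with saline. Rsad2 (viperin), an antiviral radical SAM enzyme, had 1991 and 1660 TPM with LPS and 7031 and 6725 TPM with IFNb (-1.92 ± 0.11), and saline had 20.8 and 20.3 TPM. The dNTPase gene Samhd1 had 447 and 423 TPM with LPS and 3059 and 3163 TPM with IFNb (-2.84 ± 0.07), with saline near the LPS level at 270 and 312 TPM. Its values with LPS were thus much closer to saline than those of Rsad2. Isg20, an exonuclease, had 49.6 and 58.1 TPM with LPS and 441 and 442 TPM with IFNb (-3.02 ± 0.10), and tetherin (Bst2) had 231 and 245 TPM with LPS and 955 and 933 TPM with IFNb (-1.98 ± 0.07).

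The IFIT family, whose proteins bind foreign RNA ends, spanned a wide range. Ifit1 had 1518 and 1487 TPM with LPS and 2938 and 2424 TPM with IFNb (-0.83 ± 0.12). Ifit2 had 546 and 292 TPM with LPS and 4193 and 3946 TPM with IFNb (-3.35 ± 0.31). Ifit1bl1, whose promoter is printed above, had 26.2 and 17.2 TPM with LPS and 1633 and 1577 TPM with IFNb, against 1.96 and 1.94 TPM with saline (-6.17 ± 0.20, adjusted p = 2.28e-04). Ifit3 and Ifit3b were lower with LPS by 3.75 and 3.85, but these near-identical copies can share reads, and their separate levels are uncertain. The same holds for the Oas1 copies, the Phf11 genes and the Trim30 genes. Ranked by level with LPS, Ifit1 was highest of these IFIT genes and Ifit1bl1 lowest, whereas with IFNb Ifit2 was highest.

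A minority of interferon-stimulated genes had equal or higher levels with LPS. Mx1, a dynamin-like antiviral GTPase, had 786 and 755 TPM with LPS and 1215 and 1229 TPM with IFNb (-0.66 ± 0.07), while its paralog Mx2 had 493 and 540 TPM with LPS and 331 and 301 TPM with IFNb (0.71 ± 0.09, adjusted p = 0.00498), a call lost when all 8 libraries entered the fit. Oasl1, a translational repressor of Irf7, had 1053 and 799 TPM with LPS and 849 and 1091 TPM with IFNb, and the groups overlapped (-0.07 ± 0.19, 95% interval -0.58 to 0.44). The RNA sensor Ifih1 (MDA5) had 745 and 698 TPM with LPS and 582 and 611 TPM with IFNb (0.27 ± 0.08, adjusted p = 0.047), a call lost whichever library was left out. Its relative Ddx58 (RIG-I) had 174 and 171 TPM with LPS and 468 and 445 TPM with IFNb (-1.40 ± 0.07). The paired sensors and the paired Mx genes thus stood on opposite sides.

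Isg15, the ubiquitin-like modifier, and its enzymes were lower with LPS in 5 of 6 genes (median -1.97). Isg15 itself had 1113 and 1213 TPM with LPS and 2145 and 2004 TPM with IFNb (-0.84 ± 0.09). The E1 enzyme Uba7 had 158 and 185 TPM with LPS and 691 and 641 TPM with IFNb (-1.95 ± 0.11), and the E2 enzyme Ube2l6 had 121 and 115 TPM with LPS and 465 and 485 TPM with IFNb (-2.00 ± 0.08). The enzymes thus differed by more log2 units than the modifier.

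The GTPases that attack vacuoles of intracellular pathogens were lower with LPS in nearly every case. Of 10 guanylate-binding proteins, 9 were lower and 1 higher (median -2.15), and all 9 immunity-related GTPases tested were lower (median -1.73). Gbp2 had 249 and 254 TPM with LPS and 1948 and 1841 TPM with IFNb (-2.91 ± 0.07). Gbp5, which promotes NLRP3 assembly, had 714 and 695 TPM with LPS and 567 and 537 TPM with IFNb (0.35 ± 0.07, adjusted p = 0.0199), a call lost whichever library was left out. Iigp1 (Irga6) had 19.5 and 15.7 TPM with LPS and 494 and 529 TPM with IFNb (-4.79 ± 0.12), while its regulator Irgm1 had 405 and 394 TPM with LPS and 953 and 927 TPM with IFNb (-1.23 ± 0.07). Tgtp1 and Tgtp2, which are near-identical, and Gbp10 and Gbp11 can share reads and are uncertain one by one. With saline, Gbp2, Gbp5 and Iigp1 stood between 0.713 and 18.9 TPM.

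All 12 PYHIN genes tested, a cluster that includes the DNA sensors Aim2 and Ifi204, were lower with LPS (median -1.26). Ifi204 had 749 and 668 TPM with LPS and 1543 and 1641 TPM with IFNb (-1.17 ± 0.09), and Mndal had 888 and 820 TPM with LPS and 2278 and 2304 TPM with IFNb (-1.42 ± 0.08). These paralogs resemble each other and reads may be split among them. Of 12 PARP genes 9 were lower and none higher (median -0.91), as were 10 of 13 TRIM genes (median -1.05). Of 8 Schlafen genes, 6 were lower and 1 higher. Slfn4 had 145 and 102 TPM with LPS and 784 and 1132 TPM with IFNb (-2.94 ± 0.25), whereas Slfn2, needed for quiescence of T cells and monocytes, had 1557 and 1432 TPM with LPS and 622 and 590 TPM with IFNb (1.30 ± 0.08).

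**Figure D4:**
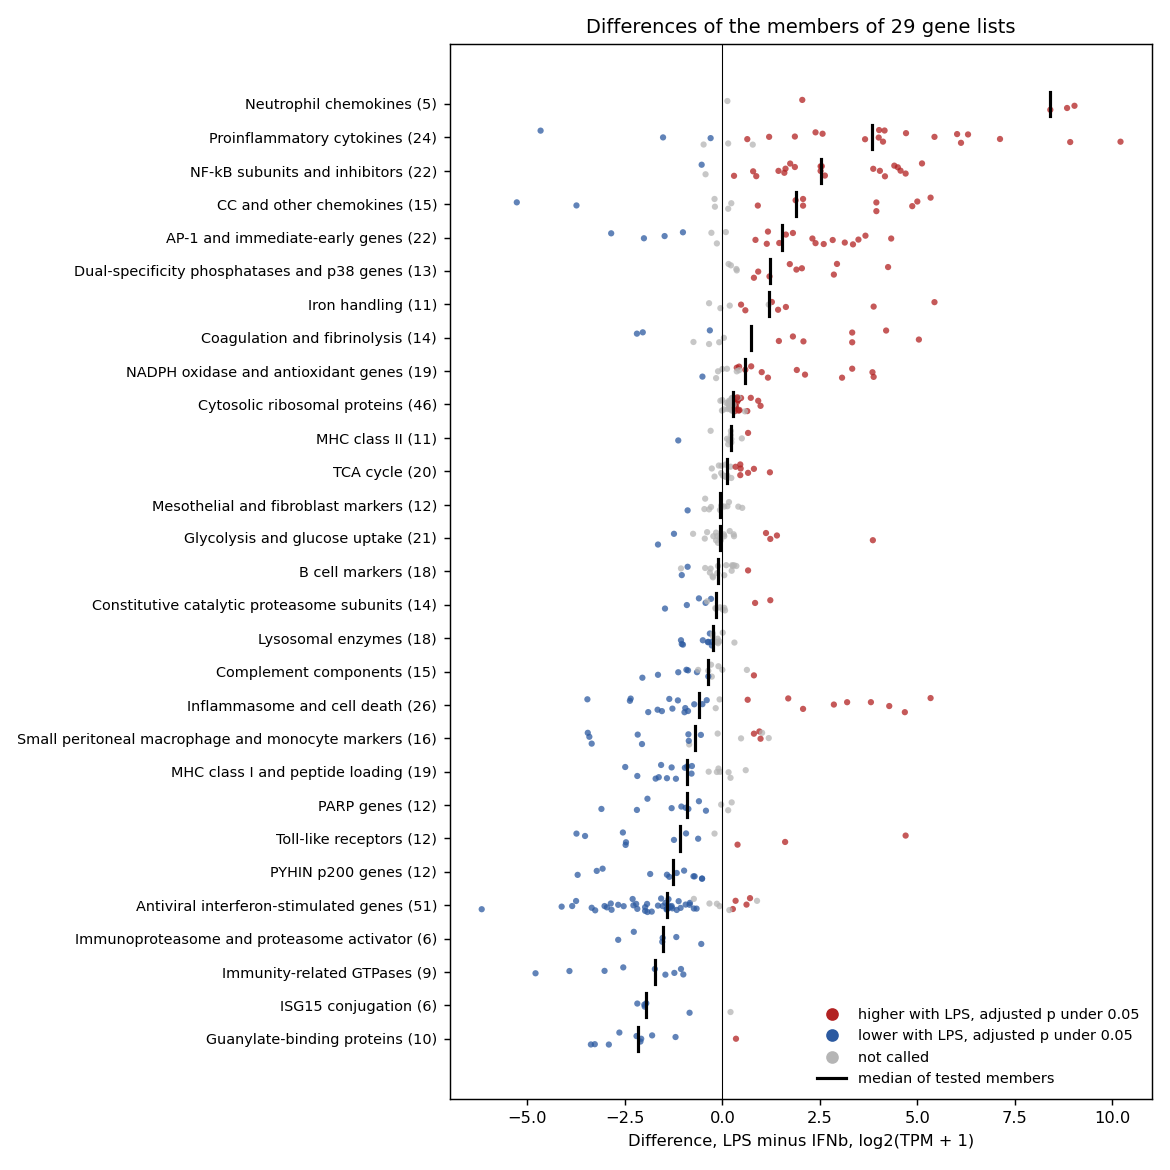
Each row is 1 of 29 gene lists, each point the difference of 1 tested member, LPS minus IFNb (log2(TPM + 1)), and the bar its median. Neutrophil chemokines have the highest median (8.41) and guanylate-binding proteins the lowest among those described (-2.15), while MHC class II and the TCA cycle lie near 0.

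Many peptide-loading genes of MHC class I were lower with LPS, while the classical heavy chains did not pass. Of 19 genes, 12 were lower and none higher with LPS (median -0.90). H2-K1 had 1439 and 1211 TPM with LPS and 1305 and 1525 TPM with IFNb (-0.10 ± 0.13), and H2-D1 had 3575 and 3087 TPM with LPS and 3465 and 3877 TPM with IFNb (-0.14 ± 0.11), with overlapping groups in both. The peptide transporter subunit Tap1 had 279 and 269 TPM with LPS and 621 and 635 TPM with IFNb (-1.19 ± 0.07), and saline had 44.5 and 45.9 TPM. Nlrc5, the transactivator of class I genes, had 68.2 and 67.0 TPM with LPS and 206 and 198 TPM with IFNb (-1.57 ± 0.07). The non-classical H2-T22 had 96.8 and 104 TPM with LPS and 454 and 459 TPM with IFNb (-2.18 ± 0.08). B2m, the light chain, had 4980 and 3917 TPM with LPS and 7170 and 7981 TPM with IFNb (-0.78 ± 0.15, adjusted p = 0.015), a call lost without IFNb 2.

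All 6 immunoproteasome and activator genes were lower with LPS (median -1.53). Psmb8 had 164 and 172 TPM with LPS and 468 and 501 TPM with IFNb (-1.53 ± 0.08), Psmb9 had 172 and 159 TPM with LPS and 468 and 494 TPM with IFNb (-1.54 ± 0.08), and Psmb10 had 83.4 and 81.2 TPM with LPS and 405 and 397 TPM with IFNb (-2.27 ± 0.07). The constitutive subunits that these replace did not follow. Psmb5 had 111 and 110 TPM with LPS and 107 and 104 TPM with IFNb (0.07 ± 0.07), Psmb7 had 144 and 125 TPM with LPS and 126 and 134 TPM with IFNb (0.05 ± 0.10), and Psmb6 was higher with LPS at 463 and 468 TPM, against 252 and 268 TPM with IFNb (0.84 ± 0.07).

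MHC class II changed little, with 1 of 11 members higher, 1 lower and a median of 0.22, and neither call held when LPS 2 was left out. H2-Ab1 had 281 and 214 TPM with LPS and 179 and 248 TPM with IFNb (0.22 ± 0.21), with overlapping groups. Costimulatory molecules had 8 of 16 members higher and 6 lower with LPS (median 0.94). The CD28 ligands went in opposite directions. Cd80 had 39.7 and 44.4 TPM with LPS and 5.29 and 3.46 TPM with IFNb (3.02 ± 0.20), while Cd86 had 26.7 and 29.1 TPM with LPS and 122 and 110 TPM with IFNb (-2.02 ± 0.10). The checkpoint ligand Cd274 (PD-L1) had 308 and 330 TPM with LPS and 880 and 867 TPM with IFNb (-1.45 ± 0.07). The adhesion molecule Icam1 had 831 and 762 TPM with LPS and 29.8 and 32.1 TPM with IFNb (4.64 ± 0.09). Cd69, an early activation marker, had 96.9 and 71.1 TPM with LPS and 589 and 565 TPM with IFNb (-2.78 ± 0.16).

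The Toll-like receptor list had 3 of 12 members higher and 8 lower with LPS (median -1.08). Tlr2, the lipoprotein receptor, had 509 and 510 TPM with LPS and 19.9 and 17.4 TPM with IFNb (4.70 ± 0.09), and its partner Tlr1 had 68.3 and 55.0 TPM with LPS and 19.0 and 19.8 TPM with IFNb (1.61 ± 0.13). The other partner, Tlr6, did not pass, with 17.1 and 15.2 TPM with LPS and 18.7 and 18.6 TPM with IFNb (-0.20 ± 0.11). Among endosomal receptors for nucleic acids, Tlr3 had 10.9 and 9.34 TPM with LPS and 152 and 142 TPM with IFNb (-3.74 ± 0.11), and Tlr9 had 4.82 and 4.20 TPM with LPS and 50.8 and 75.8 TPM with IFNb (-3.52 ± 0.22). Tlr7 was the exception at 283 and 244 TPM with LPS and 197 and 204 TPM with IFNb (0.39 ± 0.10, adjusted p = 0.0356), a call that held only without LPS 2. Of the antibody receptors, Fcgr1 had 48.0 and 50.2 TPM with LPS and 691 and 739 TPM with IFNb (-3.84 ± 0.08), and Fcgr4 had 90.9 and 97.5 TPM with LPS and 604 and 632 TPM with IFNb (-2.70 ± 0.08). Clec4e (Mincle), a receptor for mycobacterial glycolipid, had 919 and 892 TPM with LPS and 19.2 and 13.7 TPM with IFNb (5.72 ± 0.17).

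Inflammasome and cell-death genes had 9 of 26 members higher and 15 lower with LPS (median -0.61). Nlrp3 had 187 and 142 TPM with LPS and 5.20 and 5.54 TPM with IFNb (4.68 ± 0.16), and Mefv (pyrin) had 157 and 135 TPM with LPS and 6.28 and 6.82 TPM with IFNb (4.28 ± 0.12). The adaptor Pycard (ASC) had 30.9 and 32.3 TPM with LPS and 101 and 103 TPM with IFNb (-1.66 ± 0.08), and Casp1, which cleaves pro-IL-1 beta, had 180 and 167 TPM with LPS and 509 and 506 TPM with IFNb (-1.55 ± 0.08). Casp4, the mouse caspase-11 gene that binds LPS in the cytosol, had 244 and 249 TPM with LPS and 268 and 250 TPM with IFNb, against 22.2 and 24.1 TPM with saline, and did not pass (-0.07 ± 0.08). The necroptosis effector Mlkl had 40.3 and 37.3 TPM with LPS and 212 and 197 TPM with IFNb (-2.37 ± 0.09). Cflar (cFLIP), an inhibitor of caspase-8, was higher with LPS, with 479 and 435 TPM with LPS and 144 and 138 TPM with IFNb (1.69 ± 0.08). The Bcl2a1 copies were higher with LPS by 3.20 to 5.34 but share sequence and are uncertain one by one.

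Of 17 prostaglandin and leukotriene enzymes tested, 8 were higher and 2 lower with LPS (median 0.51), and the 2 fell to 1 without LPS 2 and to none when LPS 1, IFNb 1 or IFNb 2 was left out. Of 10 genes of nitric oxide, arginine and itaconate metabolism, 5 were higher and 2 lower (median 0.40), and the 5 fell to 3 without LPS 2. Ptgs2 (COX-2), the inducible prostaglandin synthase, had 505 and 440 TPM with LPS and 2.84 and 2.03 TPM with IFNb (7.11 ± 0.15), while constitutive Ptgs1 had 6.69 and 10.4 TPM with LPS and 9.37 and 7.45 TPM with IFNb and did not pass. Acod1, which makes itaconate, had 1785 and 1562 TPM with LPS and 396 and 397 TPM with IFNb, against 8.32 and 10 TPM with saline (2.07 ± 0.09). Nos2, the inducible nitric oxide synthase, had 21.9 and 45.3 TPM with LPS and 11 and 7.92 TPM with IFNb (1.65 ± 0.38, adjusted p = 0.0264), a call lost without LPS 2, IFNb 1 or IFNb 2. Its cofactor enzyme Gch1 had 50 and 52.4 TPM with LPS and 103 and 94.2 TPM with IFNb (-0.93 ± 0.09). The competing enzyme Arg1 varied within each group, with 267 and 811 TPM with LPS and 1589 and 655 TPM with IFNb, and did not pass (-1.13 ± 0.68, adjusted p = 0.248).

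Of 19 oxidant and antioxidant genes, 12 were higher and 1 lower with LPS (median 0.59), and the 1 was lost without LPS 1, LPS 2 or IFNb 1. Sod2, the mitochondrial superoxide dismutase, had 312 and 314 TPM with LPS and 37.7 and 35 TPM with IFNb (3.07 ± 0.08), and the cystine importer Slc7a11 had 88.2 and 75.2 TPM with LPS and 5.22 and 4.25 TPM with IFNb (3.85 ± 0.14). Hvcn1, the proton channel that supports the oxidative burst, had 158 and 138 TPM with LPS and 12.6 and 15 TPM with IFNb, against 108 and 105 TPM with saline (3.33 ± 0.13). The oxidase subunit Cyba had 1152 and 1097 TPM with LPS and 1093 and 1159 TPM with IFNb (-0.00 ± 0.08, 95% interval -0.21 to 0.20). Iron genes had 7 of 11 members higher and none lower (median 1.19). The ferritin heavy chain Fth1 had 19994 and 21910 TPM with LPS and 8708 and 8643 TPM with IFNb (1.27 ± 0.09), whereas the light chain Ftl1 had 15856 and 16228 TPM with LPS and 14434 and 13642 TPM with IFNb (0.19 ± 0.08, adjusted p = 0.128). Lcn2, which captures bacterial siderophores, had 87.3 and 170 TPM with LPS and 2.52 and 1.28 TPM with IFNb (5.44 ± 0.39), and Hamp (hepcidin) had 16.5 and 18.5 TPM with LPS and 0.269 and 0.239 TPM with IFNb (3.88 ± 0.14).

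Of 21 glycolytic genes 4 were higher and 2 lower with LPS (median -0.06), and of 20 TCA cycle genes 7 were higher and none lower (median 0.11), against 18.4% higher and 24.4% lower over all genes. The count of glycolytic genes higher with LPS was near the share over all genes, and that of TCA cycle genes was above it. Leaving out any one library reduced the TCA cycle calls to 3 or 4, and the 4 glycolytic genes fell to 2 without LPS 1, LPS 2 or IFNb 2, with 4 lower without LPS 2. Hif1a had 234 and 226 TPM with LPS and 84.0 and 89.1 TPM with IFNb (1.40 ± 0.08), and the glucose transporter Slc2a6 had 229 and 239 TPM with LPS and 16.9 and 13.7 TPM with IFNb (3.86 ± 0.12). Hexokinase 3 (Hk3) was lower with LPS at 280 and 260 TPM, against 830 and 871 TPM with IFNb (-1.65 ± 0.08). The cholesterol exporters split, with Abca1 at 51.6 and 60.4 TPM with LPS and 12 and 8.95 TPM with IFNb (2.32 ± 0.17), and Abcg1 at 12.4 and 10.7 TPM with LPS and 165 and 181 TPM with IFNb (-3.80 ± 0.11). Saline had 93.4 and 107 TPM of Abcg1, between the stimuli.

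Against 18.4% higher and 24.4% lower over all genes, coagulation genes had 7 of 14 members higher and 3 lower with LPS (median 0.74). Complement genes had 1 of 15 higher and 7 lower (median -0.36). Fewer coagulation genes were called higher whichever library was left out, and the complement gene called higher was lost without IFNb 2. Tissue factor (F3), which starts clotting, had 53.4 and 63.2 TPM with LPS and 6.81 and 3.41 TPM with IFNb (3.33 ± 0.30). The anticoagulant thrombomodulin (Thbd) was lower with LPS at 1.25 and 1.5 TPM, against 9.84 and 9.73 TPM with IFNb and 22.2 and 24.8 TPM with saline (-2.19 ± 0.14). Urokinase (Plau) had 110 and 79.4 TPM with LPS and 362 and 418 TPM with IFNb (-2.04 ± 0.18), while its receptor Plaur had 378 and 345 TPM with LPS and 110 and 95.3 TPM with IFNb (1.81 ± 0.11). Complement factor B (Cfb), of the alternative pathway, had 128 and 107 TPM with LPS and 323 and 421 TPM with IFNb (-1.65 ± 0.17), and the C3a receptor C3ar1 had 243 and 216 TPM with LPS and 973 and 937 TPM with IFNb (-2.05 ± 0.09).

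Transcription factors of the macrophage lineage had 6 of 15 members higher and 3 lower with LPS (median 0.32), against 18.4% and 24.4% over all genes. Cebpb, of emergency myelopoiesis, had 335 and 438 TPM with LPS and 87.6 and 67.3 TPM with IFNb (2.30 ± 0.19), whereas Cebpa had 14.3 and 10.5 TPM with LPS and 63.1 and 77.5 TPM with IFNb, against 145 and 158 TPM with saline (-2.42 ± 0.19). Maf, a large Maf factor that helps hold macrophages in a differentiated state, was lower with LPS. It had 19.5 and 21.1 TPM with LPS and 129 and 104 TPM with IFNb (-2.46 ± 0.13).

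Outside the lists, the rule for the largest differences named several other genes. Rnd1 had 488 and 614 TPM with LPS and 2.05 and 1.17 TPM with IFNb (7.73 ± 0.21), and Gpr84, a receptor for medium-chain fatty acids, had 68.9 and 58.7 TPM with LPS and 0.221 and 0.229 TPM with IFNb (5.72 ± 0.13). Endothelin-1 (Edn1), a vasoconstrictor peptide from the growth factor list, had 172 and 152 TPM with LPS and 0.784 and 1.17 TPM with IFNb (6.37 ± 0.14). In the other direction Fgl2, a fibrinogen-like prothrombinase, had 21.4 and 17.6 TPM with LPS and 738 and 825 TPM with IFNb, and its saline level of 19.4 and 16.2 TPM was that of LPS (-5.26 ± 0.12). Rgs2, which shortens G-protein signals, had 10.5 and 11.7 TPM with LPS and 196 and 235 TPM with IFNb, against 165 and 132 TPM with saline (-4.16 ± 0.12). Rhov had 1.08 and 1.18 TPM with LPS, 33.9 and 34.2 TPM with IFNb and 36.6 and 39.0 TPM with saline (-4.04 ± 0.11). For Fgl2 the IFNb libraries stood apart from saline, and for Rgs2 and Rhov the LPS libraries did. Zswim9 spread widely with IFNb, at 0.836 and 1.11 TPM with LPS and 29.3 and 130 TPM with IFNb (-5.00 ± 0.71, adjusted p = 0.00668), a call lost without LPS 1 and with all 8 libraries in the fit.

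Markers of peritoneal macrophage subsets and of other cells were counted as well, and their part in the results was not tested. Over all genes, 18.4% were higher and 24.4% lower with LPS. Of 16 large peritoneal macrophage genes tested, 4 were higher and 3 lower with LPS (median -0.04), and these counts fell to as few as 2 and 1 when a library was left out. Their summed level was 2330 and 2446 TPM with LPS and 1474 and 1513 TPM with IFNb. Serpinb2, at 382 and 516 TPM with LPS and 13.6 and 11.6 TPM with IFNb, and Cd9 supplied much of that gap. Small peritoneal macrophage and monocyte markers had 3 of 16 members higher and 8 lower with LPS (median -0.70), and the 3 fell to 1 without LPS 2 or IFNb 2. Their summed level was 1037 and 1360 TPM with LPS and 2423 and 2793 TPM with IFNb. Much of that gap came from Ms4a4c, at 173 and 83.7 TPM with LPS and 1021 and 1511 TPM with IFNb, against 9.23 and 6.44 TPM with saline. Also lower in this list, Ly6c2, of inflammatory monocytes, had 22.9 and 14.6 TPM with LPS and 67.1 and 110 TPM with IFNb (-2.17 ± 0.32). Ccr2 had 5.45 and 4.15 TPM with LPS and 23.4 and 22.8 TPM with IFNb (-2.06 ± 0.15), against 34.1 and 31.5 TPM with saline. The 3 higher with LPS were Itgax (0.81 ± 0.14), Cx3cr1 (0.95 ± 0.20) and Treml4 (0.98 ± 0.20). Itgax had 55.1 and 44.2 TPM with LPS and 28.7 and 26.7 TPM with IFNb, while Cx3cr1 and Treml4 stayed at or below 2.13 TPM with both stimuli. Of 17 T and NK cell markers tested, none were higher and 3 lower, below the share lower over all genes, and the list summed to 54.5 and 48.5 TPM with LPS and 123 and 171 TPM with IFNb. Klrk1 (NKG2D) supplied most of the sum in the IFNb libraries but not in the LPS libraries, with 6.31 and 4.61 TPM with LPS and 79.3 and 98.4 TPM with IFNb (-3.80 ± 0.18), while the T cell chain Cd3e had 1.60 and 1.98 TPM with LPS and 1.44 and 1.55 TPM with IFNb. B cell markers had 1 of 18 higher, a call lost whichever library was left out, and 2 lower, or 1 without IFNb 1, both below the shares over all genes. They summed to 318 and 381 TPM with LPS and 415 and 405 TPM with IFNb. Neutrophil markers had 3 of 9 higher, or 1 without LPS 2, IFNb 1 or IFNb 2, and 1 lower, which was lost without LPS 1 or IFNb 2 and became 2 without LPS 2. They summed to 282 and 413 TPM with LPS and 356 and 283 TPM with IFNb. Ly6g, which defines neutrophils, was listed at 0 in both LPS libraries and at 0.746 and 0.662 TPM with IFNb.

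Some genes varied between the 2 libraries of each stimulus in a shared pattern. All 12 mesothelial and fibroblast markers tested were higher in LPS 2 than in LPS 1 and higher in IFNb 1 than in IFNb 2, as were 18 of 21 glycolytic genes (85.7%) and 7 of 9 neutrophil markers (77.8%), against 3522 of all genes tested (29.1%). Decorin (Dcn), a connective tissue proteoglycan, had 16.1 and 41.4 TPM with LPS and 36.6 and 14.1 TPM with IFNb. The glycolytic kinase Pgk1 had 338 and 576 TPM with LPS and 617 and 366 TPM with IFNb. Adm (adrenomedullin), a hypoxia-induced peptide, had 1.73 and 39.5 TPM with LPS and 8.07 and 1.97 TPM with IFNb (1.02 ± 1.40, adjusted p = 0.6). For Dcn, Pgk1 and Adm the groups overlapped, and some differences in these lists rest on a wide spread. Others do not, as Hk3 (-1.65 ± 0.08), Hif1a (1.40 ± 0.08) and S100a8 (1.43 ± 0.14) passed without overlap.

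**Figure D5:**
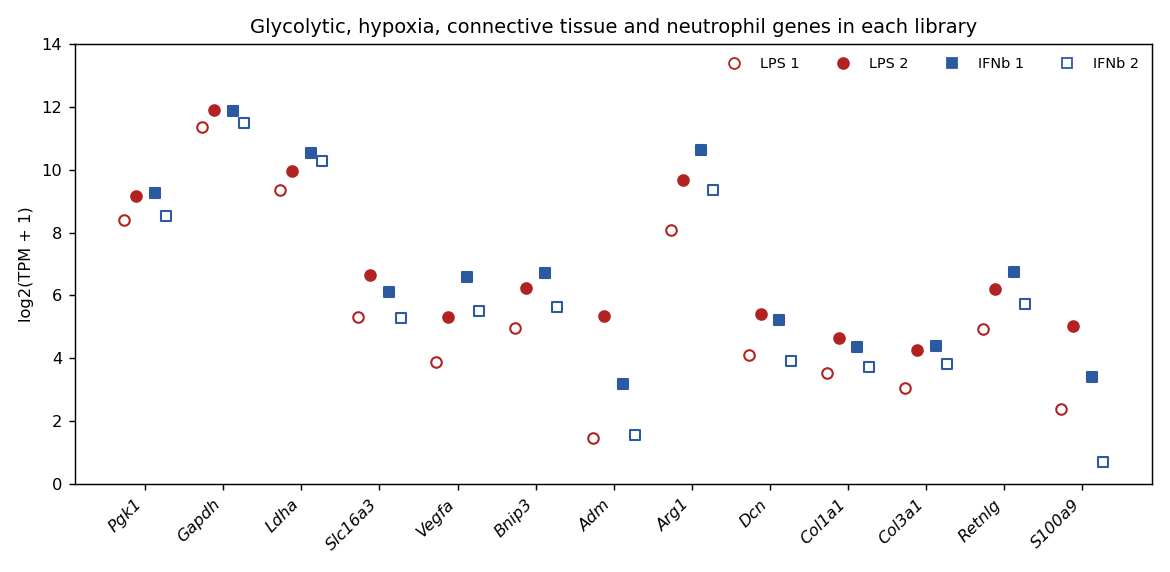
Level of 13 glycolytic, hypoxia, connective tissue and neutrophil genes in each of the 4 libraries (log2(TPM + 1)), with LPS as red circles and IFNb as blue squares, filled for LPS 2 and IFNb 1. The 13 genes were selected for display, and the filled symbol is the higher of its pair for all of them. Dcn, for example, had 41.4 against 16.1 TPM between the LPS libraries and 36.6 against 14.1 TPM between the IFNb libraries. Of the 11 tested members of the hypoxia and growth factor list, 5 (45.5%) had this pattern, against 29.1% of all genes tested.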

How the data were processed

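Total RNA of macrophages was sequenced by the submitters, and the authors deposited TPM per Ensembl transcript, made with kallisto against mm10 per the submitters' processing notes (version and options: not given in the sources used here). TPM depends on every other gene of a library, and no read depth can be recovered from it. Of 88198 transcripts, 86119 were matched to GENCODE M21 (GRCm38) and summed to 30284 genes. The 2079 unmatched transcripts held 1.12% to 1.35% of TPM in the 4 libraries used. Groups came from the labels. Genes at 1 TPM or more in at least 2 of the 4 libraries were tested with limma 3.58.1 (R 4.3.3) on log2(TPM + 1) with an intensity trend and Benjamini-Hochberg adjustment. The procedure was tested on simulated data. An exact permutation test of 2 against 2 cannot go below p = 0.333 and was not used. With 2 residual degrees of freedom per gene, limma borrows its error from other genes.

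The members and the 57 gene lists were chosen with earlier results of these data known. Genes named were, by rule, the 15 with the largest differences per direction among called genes without overlap, with mean log2(TPM + 1) of at least 3 and a named gene symbol, up to 5 per direction and list by adjusted p, a focal list, and the 10 most abundant of 105 mediator, interferon, signal and effector genes (of 398) whose 95% interval lay within 1 of 0. List members outside this rule, among them Il12a, Ifit2, Cd80, Casp4, H2-K1, H2-D1, Psmb5, Myd88, Atf3, Arg1, F3, Dcn, Pgk1 and Adm, were chosen after their values were seen. Alternatives changed the scaling, pseudocount, filter, libraries, replicate block, trend and thresholds. The 4 libraries of the other groups gave no test here. Some genes are not reported here.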

Additional observations from a re-analysis of the deposited data

How the results depend on the processing

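No gene called under both settings had opposite signs under any alternative tried. Changing only the filter, replicate block, trend or thresholds, or fitting all 8 libraries, leaves each gene's difference as it was. Signs could therefore change only under another scaling or pseudocount, or with a library left out. At an adjusted p under 0.01, 1213 genes were higher and 1643 lower with LPS, and with a difference of at least 1 required, 977 were higher and 1414 lower. Leaving out each library in turn gave 1397 to 1495 higher and 1819 to 1951 lower, with the lone library assumed to vary like the others, and kept 60.7% to 63% of the calls. Median-ratio scaling gave 2562 higher and 2650 lower and moved the median difference to 0.01. Same-numbered libraries deviated with a correlation of -0.156 over 2 pairs, so the labels' numbers are not shown to pair them. The replicate block gave 1664 higher and 2243 lower, and the crossed replicate block, chosen after seeing the data, 2429 and 3032. Of 354 named genes, 53 to 67 lost their call without 1 library and 8 under median-ratio scaling. The number of libraries, 2 per group, and an unknown depth limit low-level genes.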
